A study of Caenorhabditis elegans with 6 samples.

Results

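The wild-type germline transcriptome described here comprised the 9492 genes, of 18206 in the deposited expression table, whose normalized count averaged at least 10 over the 3 wild-type libraries. A normalized count is the number of reads on a gene divided by a factor for its library. The genes were therefore chosen by their own level, and the levels below are a description with no test. The 3 libraries were biological replicates of germlines dissected from young adult hermaphrodites of the *Caenorhabditis elegans* wild-type strain N2 (Bristol), raised at 20°C and collected 60 h after egg-lay. Worms were cut at the pharynx and the gonads that came out were collected, so sheath and spermathecal cells of the somatic gonad, sperm and fertilized eggs could accompany the germ cells. RNA was poly(A)-selected, and only the wild-type libraries are described below, although the factors behind the normalized counts were set over all 6 libraries of the series.

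The adult hermaphrodite gonad is an assembly line. Stem cells divide at its distal end, their daughters enter meiosis, and in the proximal arm, after a switch away from spermatogenesis late in larval life, oocytes grow by taking up cytoplasm made in common by the other germ cells. Oocytes are loaded with ribosomes and with mRNAs that remain silent until after fertilization, many of them held in or near the cytoplasmic bodies called P granules. The X chromosome is known to be largely silent in the mitotic and early meiotic germline of the worm, and genes needed there tend to lie on the autosomes.

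The libraries held 44991286, 96397215 and 48726973 reads on genes in replicates 1, 2 and 3, so 1 read was worth a normalized count of 1.05, 0.483 and 0.968. The 15 markers of germ cells were all among the 9492 genes and summed to between 383150 and 394349 normalized counts in a library. Markers of other tissues were far lower in the same libraries. The 10 sperm markers in the table summed to 193, 393 and 52.3, the 9 body wall muscle markers to between 2702 and 3867, the 12 intestinal markers to between 1554 and 2681, and the 3 pharynx markers to between 2.104 and 8.71. The 6 markers of gonadal sheath and spermatheca summed to between 2471 and 2982, and the 8 hypodermal markers to between 443 and 653, most of it col-19. The 11 neuronal markers summed to between 4259 and 4422, of which the synaptobrevin gene snb-1 gave 3991, 4019 and 4204. The label of the samples and the markers therefore matched, and in a dissected tissue such as this fewer cells of a type and less RNA per cell cannot be told apart.

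Just inside the minimum lay cmk-1, hlh-6 and crn-6, with means of 10.007, 10.009 and 10.022 normalized counts. Just outside it lay C06E2.1, C47E12.11 and T08B1.1, with means of 9.998, 9.997 and 9.984. Of the 9492 genes, 9062 code for protein, 293 are annotated as pseudogenes and 78 as non-coding RNA genes. Reads on the 9492 genes made up between 99.95% and 99.97% of the reads on genes in each library.

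To compare genes with each other, reads were divided by the summed length of a gene's exons and scaled to the same total in every library over all annotated genes (TPM, transcripts per 1000000). On this per-length scale the transcriptome had a high and a low peak. Genes below the minimum were left out, so the lower side of the low peak depends on the minimum. The fullest doubling step held 1750 genes between 64 and 128 TPM, the emptiest step between the peaks held 430 genes between 8 and 16 TPM, and 805 genes lay between 0.5 and 1 TPM. The 4947 genes at or above 16 TPM, called well expressed below, held 98.7% ± 0.0703 (SD, n = 3) of the summed level. The remaining members held 1.21% ± 0.0669. A few genes made up much of the total, since the 10 highest held 6.93% ± 0.0977, the 100 highest 42.4% ± 0.542 and the 1000 highest 70.6% ± 0.455, and the highest 189 sufficed to reach 50% of the level.

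**Figure D1:**
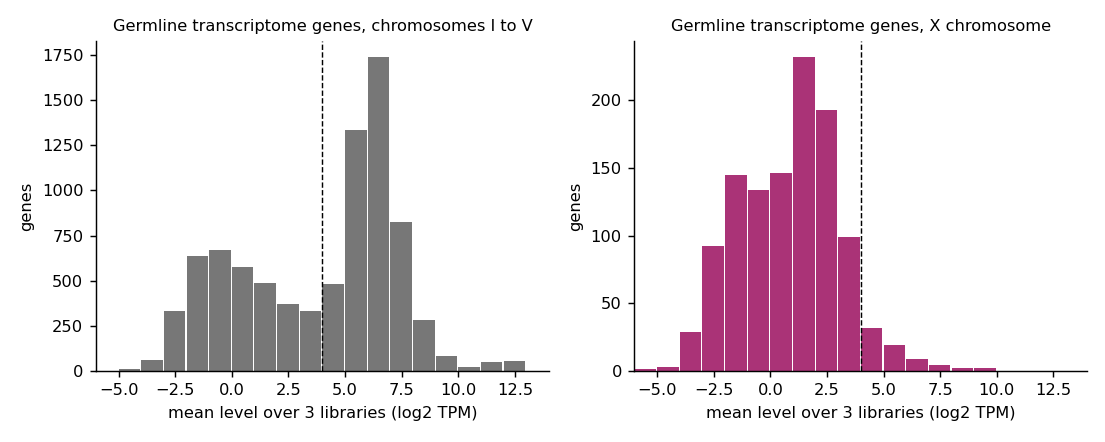
Number of germline transcriptome genes by mean per-length level over the 3 wild-type libraries (log2 TPM, bins of 1), for chromosomes I to V on the left and the X on the right, with separate count axes; the dashed line marks 16 TPM. The autosomal genes peak between 64 and 128 TPM (1740 genes), whereas the X-linked genes peak between 2 and 4 TPM (232 genes).

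The translation machinery stood at the top. The highest gene was eef-1A.1, which encodes the elongation factor that delivers aminoacyl-tRNAs to the ribosome, on chromosome III (6970026 to 6971712, WBcel235). Its level was 14510, 14227 and 13903 TPM in replicates 1, 2 and 3, and it was the highest gene in each library. Of the 25 highest genes, 22 carry a name of the rpl or rps series, the proteins of the large and small ribosomal subunit. The remaining pair, under other names, was Y37E3.8, at 6330 ± 110 TPM, and ubq-2, a ubiquitin gene, at 4994 ± 450 TPM (mean ± SD, n = 3, as in all values given in this form). Ribosomal protein genes were taken by name here, so genes under other names that encode such proteins, wholly or partly, are not counted.

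The order among these ribosomal genes was only partly the same in the libraries. After eef-1A.1 came rps-24 at 6718 ± 279, rps-25 at 6366 ± 477, rps-11 at 6200 ± 339, rps-7 at 6038 ± 133 and rpl-24.1 at 6021 ± 158 TPM. The mean of each differed from the next by less than the larger of their SDs, although rps-24 was above rps-25, and rps-25 above rps-11, in every library. The next were rps-8, rps-23, rpl-11.1, rpl-21, rpl-7, rpl-15, rpl-3, rps-0, rpl-10, rpl-4, rpl-17, rpl-36.A, rpl-6, rpl-43, rps-9 and rpl-27, which ran from 5864 down to 5010 TPM, followed by ubq-2 and, at 4914 ± 128 TPM, rpl-1.

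All but 1 of the 80 genes named as ribosomal proteins in the table were members, and 73 of the 79 lay at or above 256 TPM. Their median was 4405 TPM, beside 21.6 TPM over all members. Together they held 32.01%, 31.96% and 32.65% of the summed level in the 3 libraries, and 15.1% of the reads when no correction for length was made, since these genes are short. Copies of the same protein were very unequal. rpl-11.1 on chromosome V stood at 5693 ± 39.7 TPM and rpl-11.2 on the X at 45.2 ± 8.85, and rpl-25.2 on chromosome I stood at 4536 ± 44.2 TPM and rpl-25.1 on the X at 14.3 ± 3.401. The lowest members were rpl-37, at 12.5 ± 1.08 TPM, and rpl-25.1. rpl-42 was below the minimum, with 0.966 normalized counts in replicate 2 and none in the other libraries. How reads shared by near-identical genes were counted is not given in the sources used here, so levels of such copies are uncertain.

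The other translation factors followed. The elongation factor eef-2, which moves the ribosome along the mRNA, stood at 3647 ± 78.2 TPM and the eIF5A gene iff-1, needed for germ cell proliferation, at 3079 ± 72.2. The poly(A)-binding protein gene pab-1 had 2701 ± 322 TPM. Of 18 translation factors 14 were well expressed, and those below 16 TPM were iff-2 on chromosome II (12.7 ± 1.97) and ife-2, pab-2 and ife-4 on the X (2.88 to 11.05 TPM). The other X-linked factor, eef-1A.2, had 21.7 ± 3.03 TPM. Among chaperones, the Hsp70 gene hsp-1 was highest at 4141 ± 176 TPM, then hsp-90 at 3127 ± 276 and the mitochondrial chaperonin hsp-60 at 993 ± 45.6. All 16 measured chaperones were well expressed, down to the endoplasmic reticulum Hsp70 gene hsp-3, on the X, at 89.3 ± 16.1 TPM.

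Grouped by the letters before the hyphen of the gene name, with at least 5 members, the 12 families with the highest summed level were rpl (17.8% of the level), rps (13.7%), eef (2.26%), hsp (0.986%), cyn (0.616%), eif (0.600%), atp (0.489%), mrpl (0.477%), pas (0.391%), cpg (0.375%), rbm (0.357%) and dnj (0.355%). These are ribosomal proteins, elongation factors, heat shock proteins, cyclophilins, initiation factors, ATP synthase subunits, mitochondrial ribosomal proteins, proteasome alpha subunits, chitin-binding eggshell proteoglycans, RNA-binding proteins and DnaJ co-chaperones. The families differed in evenness. The 41 mrpl members lay between 58.7 and 198 TPM, whereas cyn rested mainly on cyn-7, at 4020 ± 179 TPM among 15 members with a median of 121.9, and rbm on rbm-3.1, at 2061 ± 150 TPM among 13 members with a median of 125.

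P granule and mRNA storage genes included some of the highest germline genes. The DEAD-box helicase gene cgh-1, whose product protects stored maternal mRNAs, had 2690 ± 123 TPM, its partner car-1 had 2270 ± 125 and the eIF4E-binding repressor ifet-1 had 587 ± 47.3. The Vasa-related helicase glh-1 stood at 570 ± 46.5 TPM and the P granule scaffold pgl-1 at 437 ± 39.4. Of 18 P granule genes 16 were well expressed, and the 2 that were not, meg-4 at 11.2 and meg-2 at 8.17 TPM, are X-linked members of the meg genes of P granule assembly.

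Genes of oocyte maturation and the eggshell were close behind. The eggshell proteoglycan genes cpg-2 and cpg-1 had 1623 ± 159 and 1457 ± 69.1 TPM, and cbd-1, whose product anchors the outer eggshell, had 1016 ± 36.5 TPM. The yolk receptor rme-2, through which oocytes import yolk made in the intestine, had 555 ± 42.2 TPM, whereas vit-6, the highest of the 6 yolk protein genes, had 713, 498 and 860 normalized counts (3.69 ± 0.920 TPM). Of 16 genes of this group 15 were well expressed, all but the caveolin gene cav-1, which is described below. All 19 maternal RNA regulators were well expressed, with a median of 291 TPM. The highest were the CCCH zinc finger gene pos-1 at 635 ± 38.2, spn-4 at 624 ± 4.85 and mex-5 at 522 ± 15.8 TPM, and the lowest was etr-1 at 39.5 ± 0.594 TPM.

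The translational repressor gld-1, which promotes entry into meiosis and holds back oocyte mRNAs, led the genes of the decision between proliferation and meiosis. It had 932, 899 and 783 TPM in replicates 1, 2 and 3, with replicate 3 the lowest. Next were sygl-1, a target of Notch signalling in stem cells, at 178 ± 7.98 and nos-3 at 174 ± 19.2 TPM, and 12 of the 13 genes were well expressed. The near-identical pumilio-family genes fbf-1 and fbf-2 were far apart, with 15.8, 15.9 and 13.5 normalized counts for fbf-1 and 3347, 3858 and 2830 for fbf-2. A tubulin pair was similar, with tba-1 at 38629, 40528 and 43984 normalized counts and tba-2 at 3.16, 16.9 and 9.68, below the minimum. Whether such gaps reflect the genes or the assignment of shared reads was not tested.

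All 26 measured genes of meiotic chromosomes were well expressed, with a median of 75.4 TPM and a range from 28.5 to 166 TPM. The synaptonemal complex gene syp-4 was the highest, then the axis genes htp-1 (143 ± 11.5) and him-3 (140 ± 7.47), and the checkpoint kinase chk-2, which starts double-strand break formation, was the lowest. Among Argonautes and small RNA factors, wago-1 (544 ± 13.9 TPM) and hrde-1 (441 ± 10.7 TPM), which carry secondary small RNAs, were above csr-1 (300 ± 23.5) and the piRNA Argonaute prg-1 (296 ± 23.6), and 17 of 21 were well expressed. The spermatogenesis Argonautes alg-3 and alg-4 had 0.216 and 0.199 TPM.

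Genes of the cell cycle and of DNA replication were led by cyclin cyb-3 (601 ± 39.8 TPM), the sliding clamp pcn-1 (479 ± 16.9) and the ribonucleotide reductase gene rnr-2 (417 ± 50.2), with a median of 179 TPM over 26 genes. The 3 below 16 TPM act at the G1 to S step in somatic cells. They were cdk-4 at 5.16, its cyclin cyd-1 at 2.24 and the inhibitor cki-1 at 0.994 TPM. The proteasome was complete, with 33 of 33 genes well expressed from pas-5 at 1317 ± 138 down to rpn-6.2 at 21.1 ± 1.14 TPM. The 15 Sm and SR splicing genes ranged from 125 to 743 TPM and the 25 nuclear pore genes above the minimum from 58.2 to 420 TPM, the highest being snr-2 and npp-9.

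Chromatin genes were led by the H2A.Z variant htz-1 (544 ± 6.61 TPM), mrg-1 (179 ± 2.34) and let-418 (164 ± 4.98), and the lowest of 20 was the X-linked HP1 gene hpl-1 at 3.17 ± 1.20. The histones in this poly(A)-selected RNA were led by the linker histones hil-5 (647 ± 18.7) and hil-4 (643 ± 24.9) and the replication-independent H3.3 genes his-74 (372 ± 8.51) and his-72 (331 ± 13.8), and 32 of 55 histone genes passed the minimum. In the sex determination pathway the fem genes, which promote male fate, and fog-2 were the highest, fem-2 at 94.9 ± 2.92, fog-2 at 67.3 ± 2.79 and fem-1 at 58.3 ± 2.67 TPM, while the master switch xol-1, the male signal her-1 and fog-3 were at 0.367, 0.307 and 0.433 TPM. Among apoptosis genes the caspase ced-3 (102 ± 1.96), the anti-apoptotic ced-9 (85.5 ± 1.19), the p53 gene cep-1 (43.7 ± 2.58) and ced-4 (43.4 ± 1.73) were well expressed, and the BH3-only gene egl-1 that triggers somatic cell death was at 1.10 ± 0.648 TPM.

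The cytoskeleton was led by tbb-2 (1323 ± 48.7), act-2 (1267 ± 80.5) and tba-1 (733 ± 38.6), and the lowest member was act-3 at 0.265 TPM, a gene close in sequence to other actins. ATP synthesis was led by the mitochondrial synthase genes atp-2 (1842 ± 56.2), atp-1 (1426 ± 16.9) and atp-5 (654 ± 33.3), and the lowest were vha-5 and vha-6, proton pump subunits known from epidermis and intestine, at 0.206 and 0.213 TPM. Collagens of the cuticle had 44 of 133 genes above the minimum and 2 well expressed, col-140 (23.5 ± 5.05 TPM) and col-124 (20.0 ± 3.44 TPM). The mRNAs encoded in mitochondrial DNA, named here after RefSeq, were all members, from the cytochrome oxidase subunit COX1 (1208 ± 198) and CYTB (681 ± 116) down to the NADH dehydrogenase subunit ND4L (19.3 ± 14.2).

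**Figure D2:**
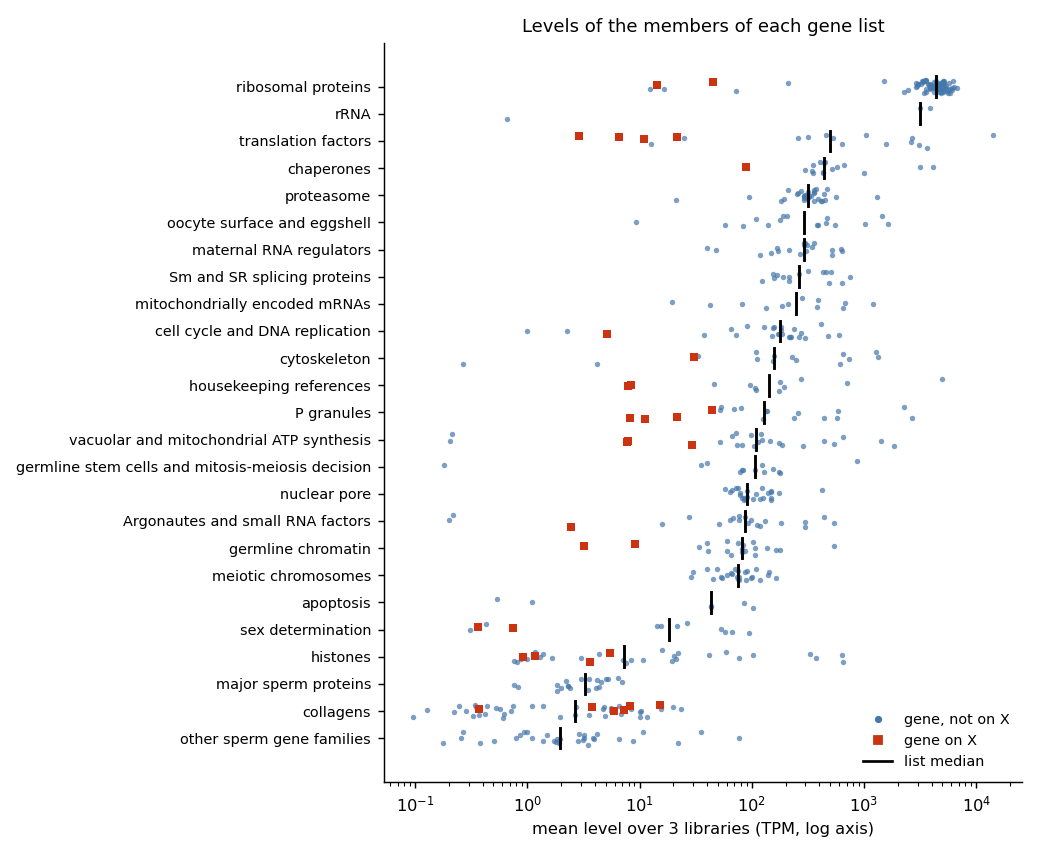
Mean per-length level over the 3 wild-type libraries (TPM, log axis) of each member of the 25 gene lists, with lists ordered by their median (black bar) and X-linked genes as red squares. Ribosomal proteins stand highest with a median of 4405 TPM, sperm gene families and collagens lowest, and the X-linked genes lie at the low end of most germline lists.

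Levels differed strongly by chromosome. Chromosome III had 42.5% of its 2640 annotated coding genes well expressed and chromosome I 40.7% of 2878, against 26.8% for IV, 26.5% for II, 14.3% for V and 2.197% of 2731 for the X. The chromosomes held 27.1% ± 0.219 (I), 24.4% ± 0.164 (III), 19.6% ± 0.105 (IV), 14.9% ± 0.0701 (II), 12.7% ± 0.107 (V) and 0.837% ± 0.0887 (X) of the summed level. The order was the same in each of the 3 libraries, and each step in it was larger than the spread between replicates. The highest genes were Y37E3.8 on I, rpl-10 on II, eef-1A.1 on III, rps-24 on IV, rpl-11.1 on V and, at 939 ± 246 TPM, F23A7.8 on X, with COX1 on the mitochondrial genome.

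The X was low in level more than in number of genes. It gave 1142 of the 9492 members, and 39.5% of its coding genes passed the minimum, against 27.6% for V. Yet the median X-linked member was at 1.88, 2.26 and 2.21 TPM in the 3 libraries and the median autosomal member at 37.4, 37.1 and 36.4 TPM. At or above 16 TPM were 68 of the 1142 X-linked members (5.95%) and 4865 of the 8335 autosomal members (58.4%). The minimum of 10 normalized counts lies far below 16 TPM at these depths, so the number of X-linked members depends on the minimum.

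**Figure D3:**
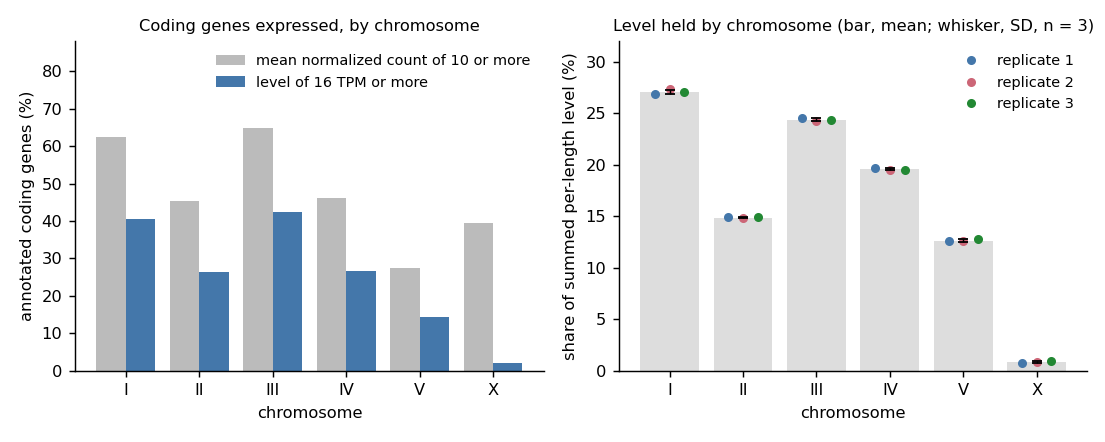
Left, the percentage of annotated coding genes on each chromosome with a mean normalized count of at least 10 (grey) and with at least 16 TPM (blue). Right, the share of the summed per-length level held by each chromosome (bar, mean; whisker, SD, n = 3; points, the libraries); the X has 39.5% and 2.197% of its genes past the marks and holds 0.837% of the level.

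Within the autosomes, well-expressed genes were denser in the middle. Dividing each chromosome into 3 equal parts, 32.9% of 6568 coding genes in the middle parts and 24.7% of 10674 in the outer parts of the autosomes were well expressed. The chromosomes were not alike in this. On V the middle part had 18.9%, against 12.03% and 11.3% to its left and right, whereas on II the left part had 16.2% and the middle and right parts 32.2% and 32.6%. The X was even, with 2.41%, 2.05% and 2.15%.

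Among the lists, X-linked members were low beside the others, mostly in groups that were otherwise high. Histones and sex determination genes were not such groups, with medians of 9.53 and 24.1 TPM for the members not on the X. In the 12 lists other than collagens that had X-linked members, all 27 of these lay below the median of the other members of their list. For the P granule list, the 4 X-linked genes had a median of 16.4 TPM and the 14 others 186 TPM. In the list of collagens, made in the epidermis, 1 of 6 X-linked genes was below the median of the others. Genes of 1 name with a copy on the X and a copy on an autosome, a comparison chosen after the values were seen, gave 30 such names with at least 1 member. The autosomal copy (on either side the highest where there were several) was above the X copy in all 3 libraries for 24 names, below it in all 3 for 4 names and mixed for 2. For example, rif-1.1 on IV had 133 ± 1.70 TPM and rif-1.2 on the X 0.0561, and rab-6.1 on III, a Golgi trafficking GTPase gene, had 135 ± 5.22 TPM and rab-6.2 9.56 ± 0.915. The X copy was the higher for pfk-1, selt-1, sfxn-1 and txdc-12, and there it was at most 11.4 TPM.

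The few X-linked genes at high level were mostly short or unnamed. F23A7.8 (16213373 to 16213576, 204 bases of exon) had 738, 864 and 1214 TPM and was highest in replicate 3. Its neighbour F23A7.4 (16212606 to 16212812) had 258, 281 and 435 TPM, in the same order. ZK380.6 and the pseudogene WBGene00023401 had 578 ± 102 and 477 ± 47.1 TPM on 81 and 73 bases, lengths at which a per-length level is least reliable with reads of this size. The highest X-linked genes with over 1000 bases of exon were C39D10.7, at 198, 178 and 185 TPM, C07D8.6, at 82.0, 110.2 and 108 TPM, and the protein disulfide isomerase gene pdi-2, at 84.4, 92.8 and 104 TPM.

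Well-expressed genes also sat closer together. The share of coding members whose upstream neighbour on the same strand ended within 500 bases, the spacing of genes transcribed together in worm operons, was 33.4% between 16 and 64 TPM and 30.6% between 64 and 256 TPM, beside 17.96% of all annotated coding genes and 12.3% between 0.25 and 1 TPM. It fell again to 20.5% between 256 and 1024 TPM and was 10.1% (12 of 119 genes) above that, where the median exon length was 654 bases. Genes with positions called as A-to-I edited in all 3 wild-type libraries (1067 positions assigned to a gene, with a confidence of at least 0.75) were mostly well expressed. These calls were not filtered against a strain without editing, so they can hold false sites. Of 75 such genes 72 were in the table. All 72 were members, beside 52.1% of the table, and 69 of them were well expressed, beside 4947 of all 9492 members. Their levels ran from 0.241 TPM for ifc-2 to 257 TPM for eif-2alpha with a median of 60.1 TPM, beside 21.6 TPM over all members. A site can be called only in a gene with reads, so the level of edited genes is partly set by the calling.

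The libraries resembled each other closely where reads were many. Over all members, log2(normalized count + 1) had a Pearson correlation across genes of 0.988 for replicate 1 with 2, of 0.976 for 1 with 3 and of 0.977 for 2 with 3. For the well-expressed genes these were 0.996, 0.992 and 0.995, and below 16 TPM 0.921, 0.853 and 0.863. These are descriptions across 9492 genes, which are not independent replicates and share library and depth. Replicate 3 was in both of the less alike pairs.

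To ask which genes varied between the libraries, the recovered reads of each gene were compared with a chi-square test of homogeneity, adjusted after Benjamini and Hochberg over the 10794 genes with at least 5 expected reads in every library. A gene was called varying if its adjusted p was at most 0.05 and its highest library was at least 2 times its lowest. The test sets the libraries against counting error only, so it says that these libraries differ and nothing about a condition. At these depths 7048 of the 9492 members (74.3%) passed the adjusted p alone, and the ratio decided most calls. Of all genes tested 2206 (20.4%) were called, and of the members 1476 (15.5%). Of these 1476, 737 were below 10 normalized counts in at least 1 library, and so passed the minimum through the others. The count remained within 1.5 times of this with other scalings but not without replicate 1 (864 genes) or without replicate 3 (727 genes).

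Varying genes were mostly low in level. Of the 4947 well-expressed genes 22 (0.445%) were called, and 98.5% of the called members lay below 16 TPM. Called were 54.3% of members below 0.25 TPM, 23.8% between 1 and 4 TPM, 0.801% between 16 and 64 TPM and 0.155% between 64 and 256 TPM. The median coefficient of variation beyond counting error was 0.399 in the first of these ranges and 0.0436 in the last. The biological coefficient of variation estimated by edgeR had a median of 0.118 over the members. By chromosome 21.4% of X-linked members were called, against 11.2% for III, but among members below 16 TPM the X had the smallest share of the 6 chromosomes with 22.6%, against 31.1% to 39.4% on the autosomes.

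**Figure D4:**
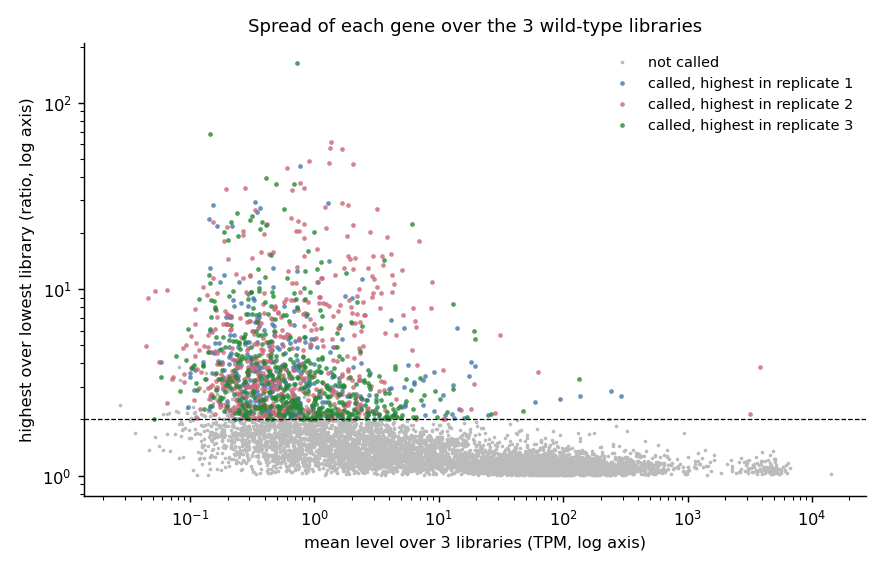
Ratio of the highest to the lowest library against mean per-length level (TPM), both on log axes, for each member with reads in every library; coloured points were called varying, by the library in which they were highest, and the dashed line marks a ratio of 2. Called genes crowd at the left, and 22 of the 4947 genes at or above 16 TPM were called; 96 called members with no read in a library are not drawn.

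Many lists held no varying gene. Others did, with alg-3 and alg-4 called among the Argonautes, cav-1 in the oocyte list, cki-1 in the cell cycle list and hpl-1 among chromatin genes. So did the lists of sex determination, with her-1 and xol-1, and of apoptosis, with csp-1 and egl-1. All of these genes were below 16 TPM. None of the ribosomal protein (79), P granule (18), meiotic chromosome (26), maternal RNA regulator (19), stem cell decision (13), nuclear pore (25), proteasome (33), translation factor (18) or chaperone (16) genes was called, beside 15.5% of all members, and none of the 15 germ cell markers. Most of these genes are at levels where few genes were called. Small shifts within the lists nonetheless ran together in a library. Of 16 oocyte surface and eggshell genes 14 were highest in replicate 3, as were 21 of 26 cell cycle genes and 23 of 33 proteasome genes, beside 39.0% of all members. Of 26 meiotic chromosome genes 15 were lowest in replicate 3, as were 18 of 25 nuclear pore genes and 8 of 13 stem cell decision genes, beside 3370 of all 9492 members. The oocyte list summed to 571671, 555641 and 636064 normalized counts in replicates 1, 2 and 3, and the meiotic list to 136700, 132517 and 129523.

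Sperm genes were among the varying genes. The major sperm proteins are small cytoskeletal proteins that drive the crawling of worm sperm, and their genes are transcribed during spermatogenesis. All 20 members were called, all 20 were lowest in replicate 3 and 18 were highest in replicate 2, beside 6.8% and 6.66% of all members called with that lowest or that highest library. Of all members between 1 and 4 TPM 23.8% were called, and 7.77% between 4 and 16 TPM. Most of the 20 were below 10 in replicate 3 and passed the minimum through other libraries, so nothing is read from these counts. msp-76, above the minimum in every library, had 76.8, 170 and 25.2 normalized counts. The values of the 20 lay between 7.37 and 89.4 normalized counts in replicate 1, with a median of 40.5, between 20.8 and 192 in replicate 2, with a median of 94.9, and between 0 and 25.2 in replicate 3, with a median of 7.74. Summed, they were 859, 1796 and 188, with replicate 2 the highest and replicate 3 the lowest, but the sum holds the genes that passed through other libraries. These are low levels, since the highest, msp-36, averaged 6.94 TPM, and these genes are near-identical copies whose single values are uncertain.

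Most members of other sperm gene families went the same way. Of 32 members 24 were called, 20 of them highest in replicate 2 and 21 lowest in replicate 3. Of all members 15.5% were called, with 23.8% between 1 and 4 TPM and 47.1% between 0.25 and 1 TPM. Summed, the 32 members had 11343.8, 11652.5 and 10276.4 normalized counts. Without replicate 3, 10 of the 32 were called. The 8 nspd and 5 ssp genes were all called. Most of these nspd genes and all of these ssp genes were below 10 in replicate 3 and passed the minimum through other libraries. The 24 called genes include them, so nothing is read from these counts. ssq-4, above the minimum in every library, had 112, 279 and 27.1 normalized counts. The sperm phosphatase genes gsp-3 (32.6, 67.1 and 1.94) and gsp-4 (40.0, 97.6 and 11.6) and the Argonautes alg-3 (22.1, 55.5 and 0) and alg-4 (10.5, 56.5 and 8.71) followed the same order. spe-39, which acts in vesicle trafficking in many cells, did not, with 5887, 5275 and 5484 normalized counts. Nor did nsph-1.2, with 865, 850 and 938. The most variable of all genes that were highest in replicate 2 and averaged at least 50 normalized counts were ZK938.1, F21H7.5, sss-1, Y38C1AA.7, msp-36, msp-152, acbp-8 and nsph-3.1. ZK938.1, on chromosome II (9829408 to 9830754), had 51.6, 111 and 1.94 (ratio 57.4, adjusted p = 1.69e-26 by the chi-square test), and all 8 were lowest in replicate 3. Body wall muscle markers were highest in replicate 2 as well, with 1 of 9 called, and whether the content of sperm or of other tissue differed between the dissections was not tested.

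Of the members 488 (5.14%) were called and highest in replicate 3. The 12 intestinal markers were highest there as well in sum, with 2125, 1554 and 2681 normalized counts, and 3 of the 11 among the members were called, 2 of them highest in replicate 3. The coelomocyte marker unc-122 was also called and highest there, and the part of these tissues in the values below was not tested. The 8 with the largest ratios at an average of at least 50 normalized counts were aman-1, sepa-1, epg-2, clec-266, C05D9.12, tbx-2, cht-1 and B0281.5. aman-1, an X-linked alpha-mannosidase gene (4733095 to 4738592), had 1.05, 69.1 and 171 normalized counts (ratio 163, adjusted p = 7.49e-40 by the chi-square test). sepa-1, whose product carries P granule proteins to autophagy in embryos, had 4.21, 13.04 and 155 (adjusted p = 1.91e-73). epg-2, an adaptor in the same degradation, had 32.6, 32.4 and 393 (adjusted p = 2.32e-173). In each of these replicate 3 was the highest by at least 2 times, and epg-2 lies on chromosome I (2300086 to 2302813) across from tpxl-1 on the other strand. The T-box factor gene tbx-2 had 35.8, 16.9 and 125 and the chitinase gene cht-1 had 47.3, 43.0 and 278. At higher levels citk-1 had 1144, 1245 and 6176 normalized counts and sax-2 had 2889, 2541 and 7395, both named after their values were seen. cav-1, the caveolin gene of the oocyte list, had 181, 261 and 515.

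Some genes had reads in only 1 library. Such a gene passes the minimum only through that library, so the number of these genes and their ratios are a description only. Of the members, 6 had reads in replicate 3 and none in replicates 1 and 2. They were sdz-30 (98.7 normalized counts), vet-6 (94.8), sdz-28 (45.5), sdz-9 (43.5), skr-8 (41.6) and skr-9 (38.7). With 3 reads per library as the limit that a count of 0 allows, sdz-30 was at least 31.3-fold higher in replicate 3 and skr-9 at least 12.3-fold higher. Replicate 2, the deepest library, had 2 such genes, F31E8.5 (36.7) and eol-1 (31.9), and replicate 1 had none.

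The vet and sdz genes are named for transcription that starts in the early embryo (very early transcripts, and zygotic transcripts that depend on SKN-1). Listed with pes-10, end-1, end-3, med-1, med-2 and tbx-35 after the values were seen, 33 such genes were in the table, of which 12 were members. Of these 12, 9 were called and 7 of the 9 were highest in replicate 3. Since sdz-30, vet-6, vet-1, sdz-28 and sdz-9 passed the minimum only through replicate 3, nothing is read from this count. vet-2 had 175, 194 and 374 normalized counts and vet-1 had 3.16, 8.21 and 48.4, with replicate 3 the highest in each. sdz-27, the highest of them, went otherwise with 895, 1023 and 792. Without it the other members summed to 241, 287 and 774, but this sum holds the genes that passed only through replicate 3. Nothing is read from it either. Over all 33 genes in the table, with no minimum, the sums were 1155, 1353 and 1653. Below the minimum, pes-10 had 0, 0 and 7.74, end-1 had 0, 2.41 and 9.68 and end-3 had 1.05, 17.4 and 0. The family of fbxb genes, F-box proteins, had 6 of 10 members called, each highest in replicate 3, beside 15.5% of all members called. Between 0.25 and 1 TPM 47.1% of members were called. Since fbxb-104, fbxb-91 and fbxb-15 passed the minimum only through replicate 3, nothing is read from this count either. The called gene fbxb-97, above the minimum in every library, had 38.9, 69.5 and 82.2. Whether fertilized eggs contributed to any of these values was not tested.

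Of the members 356 (3.75%) were called and highest in replicate 1, among them RNAs positioned opposite abundant mRNAs. The 8 with the largest ratios at an average of at least 50 normalized counts were rab-3, C55C3.3, F25H2.16, sma-2, smz-1, hpo-34, Y69A2AR.31 and K11D9.5. rab-3, a GTPase gene of synaptic vesicles on chromosome II (5721767 to 5727853), had 104, 34.8 and 19.4 (ratio 5.38, adjusted p = 4.29e-19 by the chi-square test), and of the 7 neuronal markers among the members 3 were called, each highest in another library. F25H2.16 is a non-coding gene of 133 bases on the strand opposite tct-1, and K11D9.5 lies opposite the calcium pump gene sca-1.

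Among members annotated as non-coding, antisense or long intergenic RNA, 31 lay wholly inside a coding member on the other strand. Of these 25 were highest in replicate 1, beside 3319 of all 9492 members, and 19 were called, beside 15.5% of all members. Since anr-34, F53F1.14, C32D5.18 and K07C5.17 passed the minimum only through replicate 1, nothing is read from these counts. Most of the 31 averaged 60.9 normalized counts or fewer, and of members between 0.25 and 1 TPM, with a median normalized count of 23.7, 47.1% were called. Of their host genes 2 were called. Most hosts lay at levels where few genes were called, 0.801% between 16 and 64 TPM and 0.155% between 64 and 256 TPM, so this contrast depends on level. All 9 whose host was at or above 256 TPM were highest in replicate 1, 7 of them being called and none of their hosts. K07C5.17, which passed only through replicate 1, is among these 9, so nothing is read from this count either. F53G12.17, inside rpl-7, had 2699, 1144 and 1005 normalized counts, while rpl-7 had 169695, 159315 and 156800. Y24D9A.11 inside rpl-7A had 2236, 791 and 962, Y37E3.28 inside Y37E3.8 had 1227, 459 and 474, and T05G5.17 inside iff-1 had 853, 342 and 384. In each, replicate 1 was more than 2 times both others. The libraries were made with a stranded kit, whether the counting used the strand is not given in the sources used here, and whether such reads came from the RNAs or from the mRNA across from them was not tested. Without replicate 1, 3 of the 31 were called.

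Ribosomal and mitochondrial RNAs were among the 22 well-expressed genes called. rrn-3.1, the large ribosomal RNA, had 273483, 581958 and 374452 normalized counts, and rrn-2.1, the 5.8S RNA, had 7615, 29035 and 28612. Replicate 1 was the lowest in both, and rRNA made up 0.596%, 1.32% and 0.858% of the reads on genes after poly(A) selection. The mitochondrial large and small ribosomal RNAs (WBGene00014472 and WBGene00014454) were lowest in replicate 1 as well, with 383, 2173 and 703 and with 835, 3001 and 969. Of the 12 mitochondrial mRNAs 2 were called, ND3 with 710, 1979 and 2332 and ND4L with 50.5, 154 and 301, while COX1, the highest, had 78310, 76597 and 58939. The mitochondrial RNAs therefore did not move together.

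**Figure D5:**
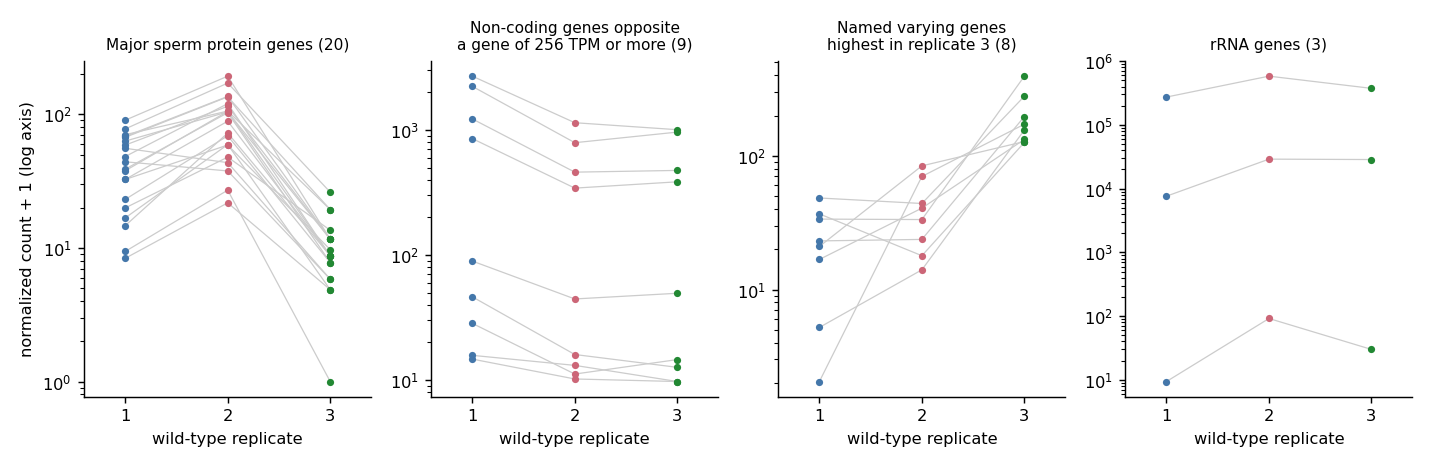
Normalized count + 1 (log axes that differ between panels) in each wild-type replicate for the 20 major sperm protein members, the 9 non-coding members opposite a gene of at least 256 TPM, the 8 named varying genes that were highest in replicate 3 and the 3 rRNA members; grey lines join the values of a gene. Sperm genes are lowest in replicate 3, the non-coding genes highest in replicate 1 and the rRNAs highest in replicate 2.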

How the data were processed

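Germline RNA of 3 wild-type libraries was analysed. The authors aligned reads to WS275 with STAR 2.7.10b and divided gene counts by 1 factor per library with DESeq2 (factors 0.950, 2.07 and 1.03, set over the 6 libraries of the series). The deposited signal is this normalized count. The 3 sample columns of the other strain were not used. The deposited confidence score of the authors' SAILOR editing calls served to name edited genes. The gene counter is not given in the sources used here. In each library 100% of values were whole multiples of the worth of 1 read, within 0.01 reads, which gave whole reads. Per-length levels (TPM) used the union of exons in Ensembl release 115 of WBcel235, which lacks 10 of the 18206 genes. Gene names came from there, and 12 mitochondrial names from RefSeq. No p-value measures more than the spread between these libraries, and the chi-square test covers counting error only.

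Members and gene lists were chosen with earlier results of these data known. Named were the 25 highest genes, the highest 3 and the lowest of each list, the highest per chromosome, the genes at the edge of the minimum, the 8 largest ratios per library and the 12 highest families; other genes were chosen after their values were seen. The chi-square test was tested on reads simulated for this comparison with counting error only, over 10765 tested genes. It called 88 of 100 genes changed 2.5-fold in 1 library, 100 of 100 changed 4-fold and 2 of 10565 unchanged ones. The simulation held no further spread between libraries, which the real libraries have, so these shares give no rate of false calls for the data. Alternatives covered the minimum, scaling (TMM, DESeq2), the ratio, gene length, the pseudocount and leaving out each library. Python 3.11.15, pandas 2.3.3, NumPy 2.4.6, SciPy 1.17.1, Matplotlib 3.10.9, R 4.3.3, edgeR 4.0.16 and DESeq2 1.42.0 were used.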

Additional observations from a re-analysis of the deposited data

How the results depend on the processing

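The number of germline transcriptome genes stayed within 1.5 times of 9492 under every alternative tried, from 8391 with a minimum mean of 20 to 10810 with a minimum of 5, and leaving out a replicate gave between 9354 and 9601. The number of varying members was 1482 with TMM factors and 1472 with DESeq2 factors, 2224 with a ratio of 1.5 and 881 with a ratio of 3, and between 727 and 1014 without a replicate. The share of X-linked genes was 11.3% with a minimum mean of 20 and between 11.9% and 12.1% without a replicate. The 10 highest genes held 6.39% on coding lengths and 7.08% with no length correction, and the ribosomal proteins 30.8% and 15.1%. The mean correlation between libraries was 0.980, and 0.991 with a pseudocount of 10. Chosen after seeing the data, leaving out a replicate gave between 14 and 20 varying major sperm proteins, between 10 and 22 genes of other sperm families and between 3 and 16 of the 31 non-coding genes opposite a coding gene. The cause of these shifts was not tested, other than by what each alternative leaves out. No paired analysis was possible because no groups were compared. Depth limits the low genes, where 3 reads correspond to a normalized count of 3.16, 1.45 and 2.90 in replicates 1, 2 and 3.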

Other observations

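The members that do not code for protein were mostly low in level. The 78 genes annotated as non-coding RNA had a median of 4.53 TPM, the 9 small nucleolar RNA genes 6.74 TPM, the 23 long intergenic RNA genes 3.43 TPM and the 293 pseudogenes 3.42 TPM, 51 of the pseudogenes being at or above 16 TPM. The piRNA gene 21ur-14823 had 122.1, 48.8 and 47.4 normalized counts in replicates 1, 2 and 3, highest in replicate 1.

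Nuclear hormone receptors, a large family of transcription factors in worms, had 86 members, of which 28 were called varying, 13 highest in replicate 2, 9 in replicate 3 and 6 in replicate 1, beside 15.5% of all members called. The called receptors had levels from 0.109 to 4.55 TPM, and of all members between 0.25 and 1 TPM 47.1% were called. Of 17 acyl-CoA synthetase (acs) members 10 were called, 5 highest in replicate 2 and 5 in replicate 3. These 10 had levels from 0.140 to 1.28 TPM, mostly below 1 TPM, beside 54.3% of all members below 0.25 TPM and 47.1% between 0.25 and 1 TPM. acs-10 had 10.5, 28.0 and 1.94 normalized counts and acs-20 had 73.7, 96.1 and 183, so the family did not move as a whole.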
